A study of Mus musculus with 20 samples.

Results

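Matrix metalloproteinases (MMPs) and the tissue inhibitors that block them (TIMPs) were followed in mouse liver with and without Hsd17b12 in hepatocytes. The set holds 10 of the 20914 genes of the count table: the proteases Mmp2, Mmp9, Mmp12, Mmp13, Mmp14, Mmp15 and Mmp19, and the inhibitors Timp1, Timp2 and Timp3. They were taken by gene symbol, and the list was chosen by a reader of the knockout against control levels of these same mice. Their differences between the genotypes are therefore given as a description, without p-values. Total RNA of the liver's left lateral lobe was sequenced in 20 male mice of strain LiB12cKO, aged 8 weeks (given as 2 months in another label). In the 10 knockout (KO) mice, of genotype HSD17B12lox/lox;Alb-CreCre/WT, the albumin promoter drove Cre recombinase in hepatocytes. The 10 control (WT) mice, HSD17B12lox/lox;Alb-CreWT/WT, carried the same floxed gene without Cre, so an effect of Cre and an effect of losing Hsd17b12 cannot be told apart. Hsd17b12 encodes a reductase of very-long-chain fatty acid elongation, and the design asks how its loss from hepatocytes alters gene expression in the liver.

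MMPs are zinc-dependent proteases that cut collagens, elastin, laminins and other matrix proteins, and also release or trim growth factors and receptors. Most are made as inactive precursors that other proteases open, among them plasmin, furin and membrane-bound MMPs, and TIMPs close the active site again. In liver they are made by stellate cells, macrophages, endothelial cells and, for some members, hepatocytes, and their balance with TIMPs is best known from scar formation and scar removal.

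Each mouse gave 16693195 to 29124124 fragments that could be assigned to a gene. Levels are given as CPM, a gene's count relative to all assigned fragments of its library, with library sizes adjusted by TMM factors to allow for differences in library makeup. Hsd17b12 itself stood at 47.8 ± 2.39 CPM in KO and 152 ± 18.5 CPM in WT (mean ± SD, n = 10 each). This amounts to -1.66 on the log2 scale (SE 0.0644; edgeR, Benjamini-Hochberg adjusted p = 3.84e-14), and no KO mouse reached the lowest WT mouse. Of 13670 genes tested, 59.1% passed an adjusted p of 0.05, 28.2% higher and 31.0% lower in KO. Hepatocyte markers were present in every mouse, with a summed level of 43450 to 59820 CPM in KO and 75560 to 106200 CPM in WT, and all 8 of them passed the test as lower in KO, 5 of them also with library size alone as the scaling. Under that scaling the median gene shifted by 0.47 in log2 fold change, from -0.025 to 0.44, so that 68.4% of genes were higher and 6.72% lower. In a bulk sample, fewer cells of a type and less RNA per cell cannot be told apart.

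Per kilobase of transcript, the most abundant members in WT liver were Mmp19 and the membrane-type proteases Mmp15 and Mmp14. Mmp19 averaged 12.6 ± 2.40 RPKM, Mmp15 11.9 ± 3.36 RPKM and Mmp14 9.37 ± 2.82 RPKM in WT (SD, n = 10), with ranges that overlapped. The inhibitors Timp3, at 4.62 ± 1.58 RPKM, and Timp2, at 3.43 ± 0.933 RPKM, came next in WT. Mmp2 followed at 1.12 ± 0.383 RPKM and its WT range lay wholly below that of Timp2. Timp1 at 0.218 ± 0.145 RPKM, Mmp9 at 0.116 ± 0.0802 RPKM, Mmp13 at 0.109 ± 0.0690 RPKM and Mmp12 at 0.0896 ± 0.0591 RPKM lay at the bottom in WT. Those 4 overlapped one another and none overlapped Mmp2.

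In KO liver the upper part of the order was the same: Mmp19 at 20.6 ± 2.73 RPKM, Mmp15 at 19.6 ± 2.68 RPKM, Mmp14 at 16.1 ± 3.20 RPKM, Timp3 at 5.06 ± 0.805 RPKM and Timp2 at 4.43 ± 0.672 RPKM. Mmp12 stood sixth in KO, at 3.14 ± 1.70 RPKM, after being last in WT, and its KO range overlapped that of its neighbours Timp2 and Mmp2. Below it in KO came Mmp2 at 2.26 ± 0.793 RPKM, Timp1 at 1.62 ± 0.988 RPKM, Mmp13 at 1.03 ± 0.618 RPKM and Mmp9 at 0.133 ± 0.117 RPKM. In KO, Mmp14 above Timp3 was the only step between neighbours at which the ranges did not overlap.

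**Figure D1:**
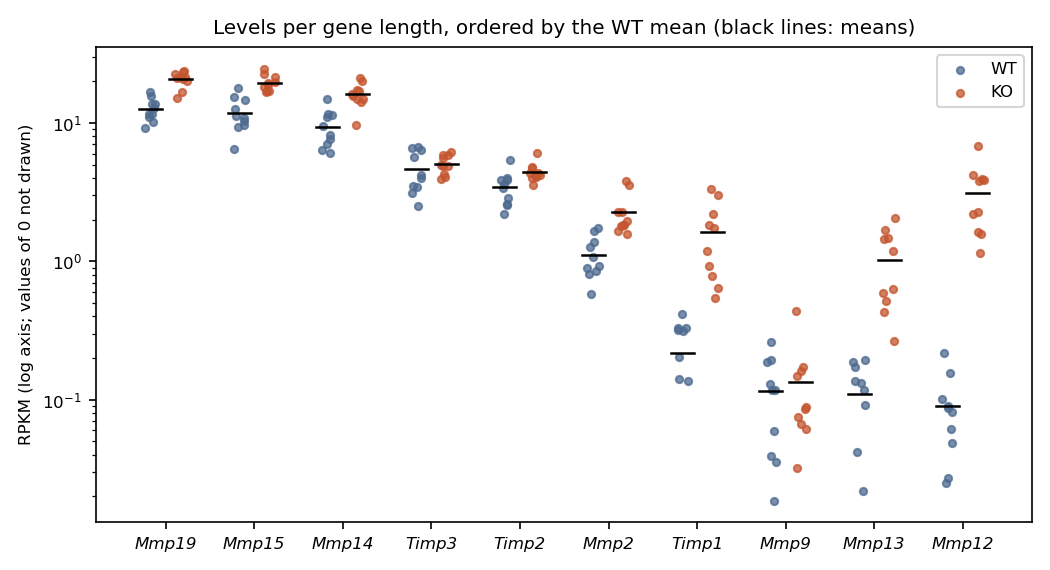
Level of each gene per kilobase in each mouse, in RPKM on a log axis, ordered by the WT mean, with 1 point per mouse, blue for WT, orange for KO and a black line at each mean. Values of 0 (1 WT mouse for Mmp13, 2 WT mice for Timp1) have no point but enter the means. Mmp19, Mmp15 and Mmp14 lead in both genotypes, while Mmp12 moves from 0.0896 RPKM in WT to 3.14 RPKM in KO.

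Mmp12, macrophage elastase, is a secreted protease best known for cutting elastin. The gene (Entrez 17381) lies on mm10 chromosome 9 at 7347374 to 7360461 on the plus strand, with 10 exon blocks of 3607 bases. In WT its level ran from 0.0892 to 0.783 CPM with a median of 0.304, which rests on 2 to 17 fragments per mouse. In KO it ran from 4.09 to 24.5 CPM with a median of 10.9, from 103 to 629 fragments. Every KO mouse was above every WT mouse. The means were 11.3 ± 6.19 CPM in KO and 0.324 ± 0.214 CPM in WT, a ratio of 34.9, and the fitted log2 fold change was 5.09 (SE 0.386). Among KO mice the level spanned a coefficient of variation of 54.7%, from mouse KO_391 at the bottom to KO_416 at the top.

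Mmp13 is the main interstitial collagenase of rodents, which opens fibrillar collagens such as type I. It sits upstream of Mmp12 on the same strand of chromosome 9, at 7272514 to 7283333 (Entrez 17386, 10 exon blocks, 2675 bases). WT mice had 0 to 11 fragments each, which gave 0.00 to 0.521 CPM with a median of 0.331, and 1 WT mouse was at 0. KO mice had 18 to 142 fragments, 0.705 to 5.53 CPM with a median of 2.43. The genotypes did not overlap, and the KO values fell into 5 mice at 0.705 to 1.68 CPM and 5 mice at 3.18 to 5.53 CPM. The ratio of the means was 9.37, from 2.75 ± 1.66 CPM in KO and 0.293 ± 0.186 CPM in WT, and the log2 fold change was 3.21 (SE 0.435). Below 3 fragments, or 0.0997 to 0.190 CPM depending on the mouse, a level cannot be told from none.

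Both genes lie in a run of 10 Mmp genes on mm10 chromosome 9, which the deposited annotation places from 7272514 to 7699416. Of these 10, 6 have a row in the count table and 3 had enough counts to be tested, namely Mmp13, Mmp12 and Mmp27. Mmp12 and Mmp13 passed the filter on low counts through their KO counts. The other 3 rows averaged 0.0798 CPM in KO and 0.0827 CPM in WT for Mmp3, 0.137 and 0.0859 CPM for Mmp8, and 0.165 and 0.025 CPM for Mmp7.

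Activator protein 1 (AP-1), the dimer of Fos and Jun proteins, is a long-known regulator of MMP promoters and binds the letters TGACTCA or TGAGTCA, which are reverse complements of each other. RefSeq promoter windows of build GRCm38.p6 (mm10) were at hand for 7 of the 10 genes, as 8 windows. Both spellings were searched in the 250 bases before each start, which covers both strands. They occurred in 2 of the 8 windows, 1 of Mmp12 and 1 of Mmp13, and in 1466 of 32851 windows over all genes (4.46%). The match lies at position -44 in Mmp12 and at -35 in Mmp13, counted back from the first transcribed base. The other window of Mmp12, before an annotated start at 7344397, holds no match. Windows of the 3 genes whose genotypes did not overlap are shown, for Mmp12 the one at the start of the deposited annotation, as the 150 bases before the start, 5′ to 3′, with the matched letters in capitals. They are chr9:7347224-7347373 for Mmp12, chr9:7272364-7272513 for Mmp13 and chrX:20870016-20870165 for Timp1, all on the plus strand. A match is a description of the letters and no evidence of binding, and the lack of one in Timp1 says only that these letters are not in its window.
Mmp12: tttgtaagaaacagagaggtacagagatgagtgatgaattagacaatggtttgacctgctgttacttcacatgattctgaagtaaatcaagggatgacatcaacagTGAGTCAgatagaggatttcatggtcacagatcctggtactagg
Mmp13: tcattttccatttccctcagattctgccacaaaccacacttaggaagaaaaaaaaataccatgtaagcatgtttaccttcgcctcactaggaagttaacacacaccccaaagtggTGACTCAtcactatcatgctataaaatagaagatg
Timp1: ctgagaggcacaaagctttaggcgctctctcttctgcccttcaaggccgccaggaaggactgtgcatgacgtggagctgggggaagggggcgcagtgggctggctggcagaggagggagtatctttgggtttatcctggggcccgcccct

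The gelatinases cut denatured collagen and type IV collagen of basement membranes. Mmp2, gelatinase A (Entrez 17390; mm10 chromosome 8, 92827328 to 92853420, plus strand, 13 exon blocks), ranged from 1.75 to 5.31 CPM in WT with a median of 3.06. In KO it ranged from 4.76 to 11.6 CPM with a median of 5.75. The genotypes overlapped narrowly: 8 of 10 KO mice were above the highest WT mouse. The mean was 6.85 ± 2.43 CPM in KO against 3.42 ± 1.18 CPM in WT, with a log2 fold change of 1.00 (SE 0.204).

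Mmp9, gelatinase B (Entrez 17395; mm10 chromosome 2, 164948251 to 164955846, plus strand, 13 exon blocks), is a protease typical of neutrophils and other myeloid cells. It had 3 to 30 fragments per KO mouse and 1 to 14 per WT mouse, too few to pass the filter for testing. Its levels were 0.418 ± 0.368 CPM in KO and 0.364 ± 0.251 CPM in WT. The ranges, 0.102 to 1.38 CPM and 0.0583 to 0.819 CPM, overlapped, and a difference was not detectable at this depth. Neutrophil markers were as sparse: 5 of 8 stayed under the same filter, their summed level was 3.50 to 10.7 CPM in KO and 1.65 to 8.19 CPM in WT, and 0 of the 3 tested passed. Ly6g, a defining neutrophil marker, was at 0 in all 10 WT mice and in 9 KO mice.

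Mmp14 and Mmp15 are held in the cell membrane. Mmp14 (MT1-MMP) activates pro-Mmp2 on the cell surface with Timp2 as a bridge and also cuts fibrillar collagen. On mm10 chromosome 14, 54431604 to 54441258 (Entrez 17387, plus strand, 10 exon blocks), it gave 15.7 to 38.5 CPM in WT with a median of 23.0, and 25.0 to 55.0 CPM in KO with a median of 41.4. The KO mean of 41.7 ± 8.41 CPM compared with 24.3 ± 7.27 CPM in WT, a log2 fold change of 0.78 (SE 0.155), and 7 KO mice were above all WT mice. Mmp15 (MT2-MMP; Entrez 17388; mm10 chromosome 8, 95352337 to 95374293, plus strand, 10 exon blocks) is a relative of Mmp14 that many epithelia express. It ran from 28.0 to 76.1 CPM in WT with a median of 47.4, and from 71.1 to 105.0 CPM in KO with a median of 81.5. In 9 of 10 WT mice it was below the lowest KO mouse. The means were 83.6 ± 11.4 and 50.9 ± 14.2 CPM, with a log2 fold change of 0.72 (SE 0.134).

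Mmp19 is a secreted protease of basement membrane proteins. It lies on mm10 chromosome 10, 128790910 to 128800824 (Entrez 58223, plus strand, 9 exon blocks). WT mice ranged from 31.9 to 57.8 CPM with a median of 42.2, and KO mice from 52.5 to 81.4 CPM with a median of 73.2. In 8 of 10 KO mice the level was above every WT mouse. The means of 71.1 ± 9.41 CPM in KO and 43.6 ± 8.17 CPM in WT gave a log2 fold change of 0.71 (SE 0.1). Of its 3453 exon bases, 789 overlap Tmem198b on the other strand. No source used here states whether counting was stranded, so fragments of the pair may not have been told apart there. Tmem198b itself averaged 3.33 CPM in KO and 3.92 CPM in WT.

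Among the inhibitors, Timp1 is the soluble form that injured tissues induce most readily. It lies on mm10 chromosome X, 20870166 to 20874737 (Entrez 21857, plus strand, 6 exon blocks, 890 bases), inside the span of Syn1, which is on the other strand. WT mice had 0 to 8 fragments, 0.00 to 0.368 CPM with a median of 0.229, and 2 of them were at 0. KO mice had 12 to 80 fragments, 0.476 to 2.96 CPM with a median of 1.30, and none overlapped WT. The means were 1.44 ± 0.886 and 0.194 ± 0.129 CPM, a ratio of 7.42, and the log2 fold change was 2.83 (SE 0.432). Syn1 read 0.353 to 0.986 CPM in KO and 0.117 to 0.532 CPM in WT.

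Timp2, which inhibits MMPs broadly and also takes part in the activation of pro-Mmp2, lies on the minus strand of mm10 chromosome 11, 118301061 to 118355411 (Entrez 21858, 5 exon blocks). It ran from 7.95 to 19.6 CPM in WT with a median of 12.7 and from 12.9 to 22.0 CPM in KO with a median of 15.4. The ranges overlapped widely, with 1 KO mouse above all WT mice. The log2 fold change was 0.36 (SE 0.130), from means of 16.0 ± 2.47 and 12.4 ± 3.42 CPM. Timp3, which binds to matrix and also inhibits ADAM proteases, lies on mm10 chromosome 10, 86300412 to 86349505 (Entrez 21859, plus strand, 5 exon blocks), inside the span of Syn3 on the other strand. Its KO range of 18.3 to 28.8 CPM, with a median of 23.2, lay inside the WT range of 11.7 to 31.8 CPM, with a median of 19.1. The means were 23.7 ± 3.82 and 21.7 ± 7.44 CPM, with a log2 fold change of 0.12 (SE 0.163).

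**Figure D2:**
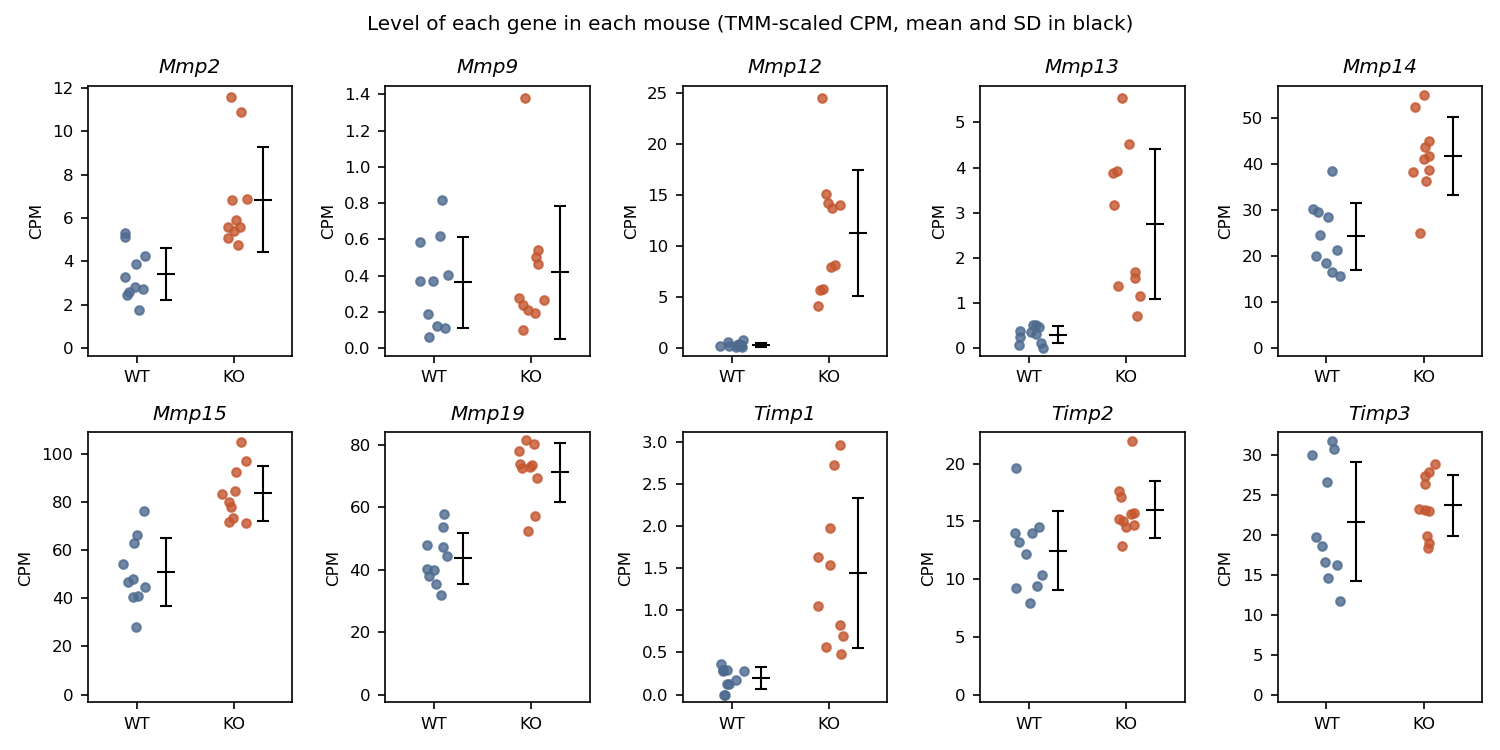
Level of each of the 10 genes in each mouse, in TMM-scaled CPM on axes that start at 0, with 1 point per mouse and the mean and SD in black beside each genotype. Mmp12, Mmp13 and Timp1 show no overlap between genotypes, whereas the 10 KO values of Timp3 lie within the WT range of 11.7 to 31.8 CPM.

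Of the 9 genes with enough counts, 8 were past the genome-wide threshold as higher in KO, 0 as lower, and Timp3 did not pass; 28.2% of all genes tested were higher. Their median log2 fold change was 0.78, against -0.025 over all genes. The genotypes did not overlap for 3 of the 9, against 7.1% of all genes with every KO mouse above every WT mouse, and 6.47% had every KO mouse below. The same contrast chose the genes, and Mmp12, Mmp13 and Timp1 passed the filter on low counts through their KO counts, so nothing is read from these counts. With library size alone as the scaling, all 9 passed as higher, Timp3 included at a log2 fold change of 0.57, and the background of higher genes was 68.4%. The change of scaling moves all genes nearly alike, so the values under TMM are also given from the median of all genes. On that footing Mmp12 was 5.11 above the median gene in log2 fold change, Mmp13 3.23, Timp1 2.85, Mmp2 1.03 and Timp3 0.15.

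**Figure D3:**
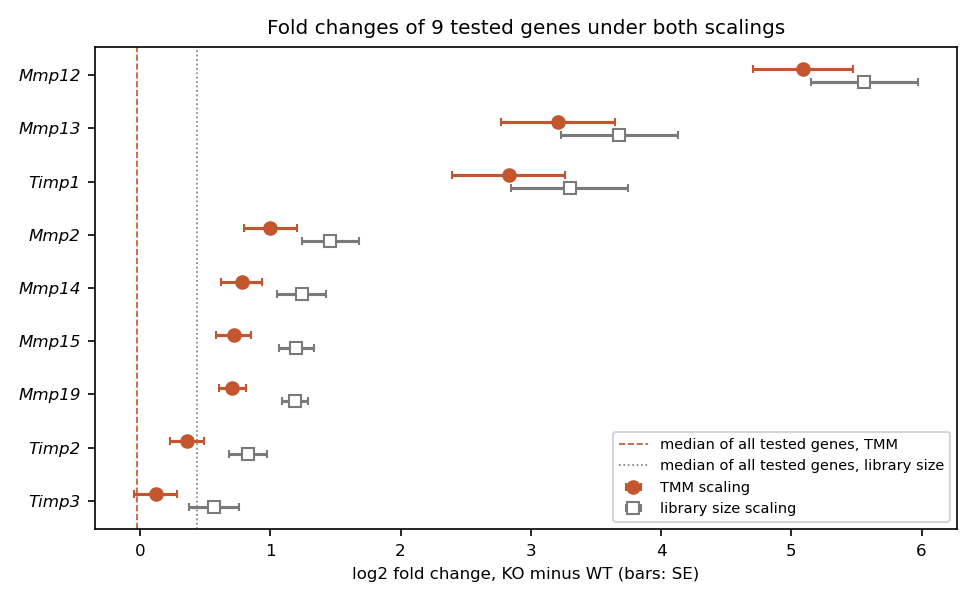
Log2 fold change, KO over WT, for the 9 tested genes, with SE bars, under TMM scaling (filled circles) and library size alone (open squares); vertical lines mark the median of all tested genes under each. Mmp12, Mmp13 and Timp1 lie farthest from both lines, and Timp3 is nearest, at 0.12 and 0.57.

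The makeup of the protease and inhibitor pools was compared as sums of RPKM. Summed over the 7 Mmp genes, the level was 62.8 ± 6.33 RPKM in KO (48.2 to 72.9) and 35.3 ± 4.29 RPKM in WT (28.3 to 41.1), with no overlap. The 3 Timp genes summed to 11.1 ± 1.95 RPKM in KO and 8.27 ± 2.36 RPKM in WT. Timp RNA thus equalled 17.7 ± 2.60% of Mmp RNA in KO and 24.0 ± 8.33% in WT, and these ranges overlapped. Mmp14, Mmp15 and Mmp19 together made up most of the Mmp pool in both genotypes: Mmp19 alone was 33.0 ± 4.25% in KO and 35.9 ± 6.40% in WT. Mmp12 was 4.87 ± 2.40% of the pool in KO and 0.262 ± 0.174% in WT, so the gene with the highest ratio remained a small part of the protease RNA. In the inhibitor pool, Timp1 took 13.7 ± 6.32% in KO and 2.57 ± 1.83% in WT, and Timp3 46.0 ± 5.41% and 55.3 ± 5.69%.

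Markers of the cells that make these genes also differed between the genotypes, where 28.2% of all tested genes were higher and 31.0% lower. Of 14 macrophage markers, 12 rose and 0 fell, with a summed level of 380 to 691 CPM in KO and 167 to 317 CPM in WT. Of 14 stellate cell markers, 10 rose and 0 fell, with 416.1 to 689 CPM in KO and 258 to 459 CPM in WT, while the contractile genes Acta2 and Tagln had log2 fold changes of -0.02 and -0.01. No macrophage or stellate marker was at 0 in any mouse. Sinusoidal endothelial markers rose for 3 of 8 (243 to 306 against 168 to 317 CPM) and biliary markers for 2 of 6, with 1 lower (49.3 to 191 against 24.3 to 57.0 CPM). The biliary sum is mainly Spp1, at a mean of 76.5 CPM in KO and 31.0 CPM in WT, which is also among the substrates below. Sox9, the next most abundant, was the lower one (4.96 and 8.55 CPM), and Krt19 and Krt7 did not pass. Of the 3 tested lymphocyte markers 0 rose and 1, Cd4, fell (2.22 to 15.4 against 2.83 to 13.5 CPM). With library size alone as the scaling, 13 macrophage, 12 stellate, 8 endothelial and 4 biliary markers were higher and 0 lower, against 68.4% of all tested genes higher; the biliary share, 4 of 6, is near that background. The part of these cell types in the differences of the Mmp and Timp genes was not tested.

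Within a genotype, the level of a gene was set against the macrophage and the stellate list in each mouse, which does not use the contrast that chose the genes. In all 36 relations were computed over 9 genes, 2 lists and 2 genotypes, each over 10 mice, with two-sided permutation tests adjusted together; 8 passed by Pearson's r and 13 by Spearman's rho. Gene and list come from the same library in each mouse, and 4 of the 14 stellate markers are matrix genes also counted among the substrates below. The share of all genes that follow these lists as closely was not computed, so the counts are not read as particular to the set. KO mice may also differ in how strongly they responded, and the part of that in these relations was not tested.

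Among KO mice, Mmp12 followed the macrophage list (r = 0.92, permutation p = 7e-05, adjusted p = 0.00252; rho = 0.93, p = 0.0003, adjusted p = 0.00918; n = 10), with r = 0.84 without the 2 mice farthest from the median. Timp1 did so as well (r = 0.87, permutation p = 0.00166, adjusted p = 0.012; rho = 0.92, p = 0.00051, adjusted p = 0.00918; n = 10), with r = 0.77 without those 2. Mice rich in macrophage markers were thus also rich in both transcripts. For Mmp14 r was 0.79 (permutation p = 0.00302, adjusted p = 0.0181; rho = 0.76, p = 0.0145, adjusted p = 0.0482; n = 10) and 0.65 without the 2 mice. For Mmp13 r was 0.79 (permutation p = 0.00895, adjusted p = 0.046; rho = 0.75, p = 0.0168, adjusted p = 0.0482; n = 10) and 0.68 without them. Neither passed without KO_391, the mouse with the lowest macrophage list, where r was 0.77 for Mmp14 (adjusted permutation p = 0.0598) and 0.76 for Mmp13 (adjusted permutation p = 0.0642). Mmp15 and Mmp19 did not pass in KO, with r = 0.04 (permutation p = 0.911, adjusted p = 0.911; rho = 0.14, p = 0.708, adjusted p = 0.750; n = 10; r = -0.05 without the 2 mice) and r = -0.06 (permutation p = 0.865, adjusted p = 0.890; rho = -0.02, p = 0.972, adjusted p = 0.972; n = 10; r = 0.27 without them).

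The stellate list gave r = 0.94 with Timp1 among KO mice (permutation p = 0.00017, adjusted p = 0.00306; rho = 0.90, p = 0.00078, adjusted p = 0.00936; n = 10), and 0.90 without the 2 mice farthest from its median. With Mmp12 it gave r = 0.91 (permutation p = 0.00047, adjusted p = 0.00564; rho = 0.88, p = 0.00155, adjusted p = 0.0112; n = 10), and 0.92 without them. These genes followed both lists, so the relations do not separate the cell types. Among WT mice, Mmp2 followed the stellate list (r = 0.87, permutation p = 0.00137, adjusted p = 0.012; rho = 0.83, p = 0.00469, adjusted p = 0.0281; n = 10; r = 0.84 without 2 mice). Timp2 did too (r = 0.76, permutation p = 0.0106, adjusted p = 0.0477; rho = 0.89, p = 0.00115, adjusted p = 0.0103; n = 10; r = 0.85 without 2 mice). In KO neither passed, with r = 0.68 for Mmp2 (permutation p = 0.029, adjusted p = 0.0614) and r = 0.71 for Timp2 (permutation p = 0.0155, adjusted p = 0.0528). Without KO_391 Timp2 passed in KO (r = 0.85, adjusted permutation p = 0.0123). With library size alone as the scaling, Mmp2, Mmp13, Mmp14, Timp2 and Timp3 passed by r with the stellate list in KO, and Timp3 in WT. Mmp15 ran the other way in WT, past the threshold by rank only (r = -0.71, permutation p = 0.0203, adjusted p = 0.0545; rho = -0.81, p = 0.0072, adjusted p = 0.0342; n = 10; r = -0.83 without 2 mice). Timp3 also passed by rank only in WT (r = 0.76, permutation p = 0.0131, adjusted p = 0.0524; rho = 0.79, p = 0.00875, adjusted p = 0.035; n = 10; r = 0.60 without 2 mice), as did Mmp13 in KO (r = 0.74, permutation p = 0.0176, adjusted p = 0.0528; rho = 0.75, p = 0.0174, adjusted p = 0.0482; n = 10; r = 0.69 without 2 mice).

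With the macrophage list, 0 relations passed by r in WT, where Mmp12, Mmp13 and Timp1 rest on few fragments, and 2 passed by rank. These were Timp2 (r = 0.70, permutation p = 0.0253, adjusted p = 0.0607; rho = 0.81, p = 0.0076, adjusted p = 0.0342; n = 10; r = 0.72 without 2 mice) and Mmp15 (r = -0.65, permutation p = 0.0429, adjusted p = 0.0858; rho = -0.76, p = 0.0156, adjusted p = 0.0482; n = 10; r = -0.70 without 2 mice). Timp2 and Mmp15 thus passed by rank with both lists in WT. With library size alone as the scaling, 3 relations with the macrophage list passed by r in WT: Mmp12 (r = 0.74, adjusted permutation p = 0.036), Mmp13 (r = 0.71, adjusted permutation p = 0.044) and Timp2 (r = 0.77, adjusted permutation p = 0.0283). Whether any relation differed between the genotypes was not tested.

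**Figure D4:**
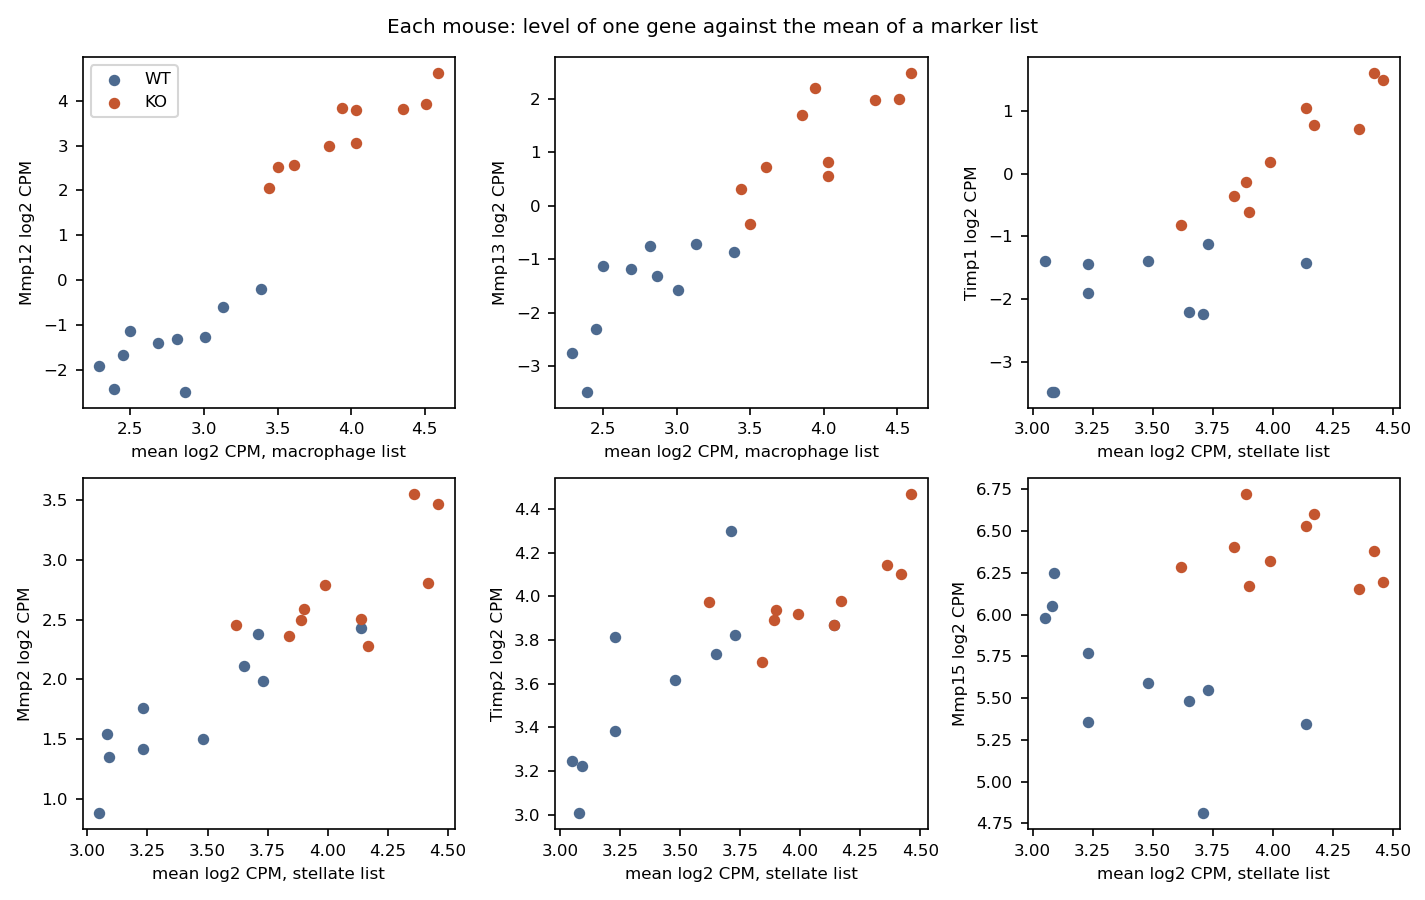
Log2 CPM of 6 genes in each mouse against the mean log2 CPM of the macrophage list (Mmp12, Mmp13) or the stellate list (Timp1, Mmp2, Timp2, Mmp15), with 1 point per mouse, blue for WT and orange for KO. Within KO, Mmp12 climbs with the macrophage list (r = 0.92) and Timp1 with the stellate list (r = 0.94), while within WT Mmp15 declines as the stellate list climbs (r = -0.71, adjusted permutation p = 0.0545).

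Relations between the genes themselves were added after the data were seen, as 72 relations over 36 pairs and 2 genotypes, of which 2 passed by r and 4 by rho. Among KO mice Mmp12 and Timp1 varied together (r = 0.94, permutation p = 0.00013, adjusted p = 0.00468; rho = 0.87, p = 0.00214, adjusted p = 0.0385; n = 10; r = 0.89 without 2 mice). Among WT mice Mmp15 was lower where Timp2 was higher (r = -0.96, permutation p = 5e-05, adjusted p = 0.0036; rho = -0.95, p = 9e-05, adjusted p = 0.00648; n = 10; r = -0.97 without 2 mice). With library size as the scaling the latter was r = -0.80 with an adjusted permutation p of 0.0578. Mmp12 and Mmp13, neighbours on chromosome 9, gave r = 0.79 in KO (permutation p = 0.0081, adjusted p = 0.0972; rho = 0.89, p = 0.00106, adjusted p = 0.0382; n = 10; r = 0.70 without 2 mice). Mmp14 and Timp3 gave r = 0.80 in WT (permutation p = 0.00742, adjusted p = 0.0972; rho = 0.87, p = 0.00195, adjusted p = 0.0385; n = 10; r = 0.73 without 2 mice). Both pairs passed by rank only.

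The genes most alike in pattern were sought among 12557 genes by Pearson's r of log2 CPM over 20 mice, after each genotype's mean was subtracted. These values are descriptive. Mmp2 was most like Eln, which encodes elastin (r = 0.92), then Col6a2 and Stard8 (both 0.86). Mmp12 was most like the collagen gene Col5a1 (0.88), Itgax, the dendritic cell and macrophage integrin (0.86), and Basp1 (0.86). Mmp13 was nearest to Rab7b (0.88), Il20rb (0.84) and Gbp8 (0.83). Mmp14 was nearest to the ribosomal protein genes Rps9 (0.92) and Rpl4 (0.88) and to Npc2, a lysosomal cholesterol carrier (0.90). Mmp15 was nearest to Nceh1 (0.85), Gorasp2 (0.83) and Decr2 (0.82). For Decr2 r was 0.97 in WT and 0.23 in KO, for Nceh1 0.93 and 0.50, and for Gorasp2 0.82 and 0.90. Gaps between the genotypes occurred for neighbours of other genes too. Of those given below, Unc45b (0.93 in WT, 0.57 in KO) and Esm1 (0.94 and 0.61) were closer in WT, while Ccdc34 (0.75 and 0.93) was closer in KO. Mmp19 had the weakest nearest neighbours, Plaa (0.79), Sec24d and Cct3 (both 0.77). Timp1 was nearest to the mitotic kinase gene Plk1, Ccdc34 and Pfkp (all 0.83), Timp2 to Col6a1 (0.87) and Unc45b (0.85), and Timp3 to Adcy1 (0.90), Sparc (0.89) and Esm1 (0.88). In WT mice Mmp12 rests on 2 to 17 fragments, Mmp13 on 0 to 11 and Timp1 on 0 to 8, so the neighbours of these genes are uncertain. Among KO mice alone r was 0.90 to 0.93 for the neighbours of Mmp12, 0.89 to 0.90 for Mmp13 and 0.82 to 0.93 for Timp1. The same KO values had a part in choosing those neighbours.

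Of the remaining 17 genes, MMPs and Timp4, 13 had a row in the count table and 3 had enough counts to be tested; of the other 10, Mmp11 had at least 5 fragments in every mouse and Mmp24 averaged 1.49 CPM in KO and 0.0147 CPM in WT. Mmp27 rose, with a log2 fold change of 1.28 (adjusted p = 0.000464; 2.09 ± 1.02 CPM in KO, 0.862 ± 0.298 CPM in WT). Mmp23 rose by 0.48 (adjusted p = 0.0237, 1.70 ± 0.489 against 1.22 ± 0.261 CPM), and Mmp17 had 0.15 (adjusted p = 0.639). The background was 28.2% higher and 31.0% lower over all genes tested, and nothing is read from calls among 3 genes.

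Of 20 tested ADAM and ADAMTS genes, relatives that shed membrane proteins or trim procollagens and proteoglycans, 12 rose and 1 fell. The share over all genes tested was 28.2% higher and 31.0% lower. The median log2 fold change of the list was 0.59 against -0.025 over all genes. Under library size scaling 17 of the 20 were higher and 0 lower, against 68.4% and 6.72% of all genes tested. Adamts1, which cuts proteoglycans, rose by 1.61 (adjusted p = 4.3e-06), from 7.78 ± 1.86 to 23.9 ± 11.2 CPM. Adam10, a sheddase of Notch and many other receptors, rose by 0.63 (adjusted p = 2.69e-05). Adamts14, a procollagen peptidase, rose by 1.46 (adjusted p = 9.29e-05). The single lower gene was Adam33, at -0.59 (adjusted p = 0.0257), whose call was lost without any 1 of 6 mice and under library size scaling, where its log2 fold change was -0.13.

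Plasminogen, opened to plasmin, is a classical activator of MMP precursors. Of 12 tested genes of that system 5 rose and 5 fell, against 28.2% and 31.0% of all genes tested. Their median log2 fold change was 0.35. Plg, plasminogen itself, stood at -0.84 (adjusted p = 1.24e-08) and Klkb1, plasma prekallikrein, at -1.08 (adjusted p = 5.08e-09); both are plasma proteins made by the liver. Anxa2, a surface receptor for plasminogen and its activator, rose by 3.20 (adjusted p = 1.53e-08), from 11.2 ± 3.33 to 103 ± 40.4 CPM. Under library size scaling 8 were higher and 4 lower, against 68.4% and 6.72% of all genes tested. Plg and Klkb1 were still lower there, at -0.38 and -0.62.

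Among 12 tested activators, binding partners and other inhibitors of MMPs, 6 rose and 3 fell, with a median of 0.32. Over all genes tested, 28.2% were higher and 31.0% lower. Cd63, a tetraspanin to which Timp1 binds, rose by 3.88 (adjusted p = 3.34e-10), from 3.01 ± 0.876 to 44.6 ± 17.9 CPM. The integrin subunit gene Itgav rose by 0.44 (adjusted p = 1.37e-05) and the proprotein convertase gene Pcsk5 by 0.51 (adjusted p = 3.48e-05). The 3 lower genes were Furin, Lrp1 and Tfpi2, at -0.45, -0.35 and -0.33. Under library size scaling 0 passed as lower, and the values of those 3 were 0.02, 0.11 and 0.14. Under that scaling 8 of the 12 were higher, near the 68.4% of all genes tested.

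Of the genes for matrix proteins that MMPs cut, all 20 tested passed under TMM scaling, 18 higher and 2 lower. Their median log2 fold change was 0.84, and 28.2% of all genes tested were higher and 31.0% lower. With library size alone as the scaling, 18 were higher and 1 lower, against 68.4% and 6.72% of all genes tested. Summed over the 20 genes, the level was lower in KO, at 3088 to 3886 CPM against 4014 to 5320 CPM in WT. Vtn and Fn1, the 2 lower genes, were also the 2 most abundant of the list. Lamc1, a laminin chain of basement membranes, rose by 1.42 (adjusted p = 2.09e-09), and Nid1, which links laminin to collagen IV, by 2.33 (adjusted p = 1.33e-07). Vtn, vitronectin, which hepatocytes secrete into plasma, fell by 0.83 (adjusted p = 4.7e-09). The other lower gene was Fn1, fibronectin, at -0.32 under TMM scaling and 0.15 under library size. Stellate markers rose beside this group, as given above, and 4 of them belong to it.

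Of 15 tested AP-1, Ets and cytokine genes, known inputs to MMP transcription, 8 rose and 1 fell, with a median of 0.44. The background was 28.2% of all genes tested higher and 31.0% lower. Under library size scaling 11 of the 15 were higher and 0 lower. The share of higher genes there is near the 68.4% of all genes tested. Tgfbr2, a receptor subunit for transforming growth factor beta, rose by 1.45 (adjusted p = 5.4e-11), the transcription factor gene Ets2 by 1.15 (adjusted p = 2.48e-07) and the stress-induced Atf3 by 4.04 (adjusted p = 5.99e-06; 15.9 ± 15.4 against 0.959 ± 0.584 CPM). Junb was the lower gene, at -1.12 (adjusted p = 0.0109), and under library size scaling it was -0.64 and did not pass; without KO_434 there were 2 lower genes.

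The authors' deposited table of their ROTS test lists 9 of the 10 genes among 12820, without Mmp9. Its log2 fold changes were 3.07 for Mmp12, 1.42 for Mmp13, 0.96 for Timp1 and 0.83 for Mmp2 in the authors' deposited table. The edgeR fit above gave 5.09, 3.21, 2.83 and 1.00 for them. For genes of few counts such values depend on any constant added before the log, and the scale of the authors' values was not examined. In that deposited table of the authors Mmp14, Mmp15 and Mmp19 stood at 0.78, 0.75 and 0.71, and Timp2 and Timp3 at 0.37 and 0.18. The authors' deposited table of gene ontology terms gave a false discovery rate of 0.0135 for collagen catabolic process (19 annotated genes) and 0.0484 for extracellular matrix disassembly (20 genes). For metalloendopeptidase activity (53 genes) the authors' deposited table gave 0.611, and for metallopeptidase activity (101 genes) 0.527.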

How the data were processed

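RNA from 20 mouse livers was compared by genotype, read from the sample labels, which give neither litter nor batch nor date. The genes and the lists beside them were chosen with earlier results of these data known. Raw counts of fragments for each Entrez gene were deposited by the authors. The deposited signal equalled CPM over TMM library sizes (largest relative deviation 5.11e-15), and in the deposited RPKM table that signal is divided by gene length in kilobases. Per the file headers, the authors' ROTS table holds a log2 fold change and a p-value corrected as a false discovery rate, and their ontology tables one per term. Names of the deposited tables point to Rsubread, RefSeq mm10 and ROTS; HISAT2 2.0.5 and DESeq2 appear in the submitters' processing notes. Whether counting was stranded is not given in the sources used.

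From the counts, edgeR 4.0.16 in R 4.3.3 tested 13670 of 20914 genes that passed filterByExpr (minimum count 10, minimum total 15), with TMM factors, robust dispersions, a quasi-likelihood F test and Benjamini-Hochberg adjustment over all tested genes at 0.05. The SE of a log2 fold change was derived from that test, as its absolute value divided by the square root of F. Genes left out held 0.0858% of fragments, and 620 genes have no symbol. The test was tried on simulated data in which few genes changed, as many up as down. That setting differs from these data and cannot speak to the choice of scaling. A prior count of 2 was used for log2 CPM. Relations used 100000 resamples, of which the smallest possible p is 1e-05. Named genes were all 10 members of the set, Hsd17b12, up to 3 called genes per list with the smallest adjusted p, and the 3 genes most alike in pattern to each gene of at least 1 CPM; the lower genes of the lists, Mmp17 and Mmp23, marker genes and genes of few counts were named after their values were seen. A gene that met the rule on pattern is not reported here. Alternatives were library size scaling, upper-quartile and DESeq2 size factors, no filter and a stricter filter, DESeq2 1.42.0, limma 3.58.1 with voom and on log2 RPKM, and leaving out each mouse. The p-values measure the spread between these mice.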

Additional observations from a re-analysis of the deposited data

Results flagged for a closer look

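Of 20 groups (10 genes in each genotype), 2 held a mouse that stood apart from the rest of its genotype by Dixon's gap test; chance gives this in about 1 of 20 groups. Mmp9 was 1.38 CPM in mouse KO_425, 30 fragments, and 0.543 CPM in the next highest KO mouse, a gap of 0.656 of the whole KO range. The same mouse had the highest mean of the 3 tested neutrophil markers, 1.64 in log2 CPM against 1.04 in the next highest KO mouse, and their part in the Mmp9 value was not tested. Timp2 was 22.0 CPM in mouse KO_414 and 17.6 CPM in the next, a gap of 0.489 of the range.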

How the results depend on the processing

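No paired analysis was possible because each mouse number occurs once and no litter is named. The values of the set are descriptive here too, since the same contrast chose the genes; a stricter filter left Mmp13 and Timp1 out of the fit. Leaving out 1 mouse, the log2 fold change ranged from 4.91 to 5.35 for Mmp12, 3.05 to 3.34 for Mmp13, 2.67 to 2.98 for Timp1 and 0.30 to 0.46 for Timp2. On log2 RPKM with a pseudocount of 1, which shrinks low genes, they were 1.82, 0.81 and 1.02 for Mmp12, Mmp13 and Timp1, and 0.61 for Mmp2. Library size alone as the scaling moved several counts: 9354 genes higher and 919 lower, 5 pathway genes lower, 8 plasminogen genes higher, 0 lower among ADAM and ADAMTS genes, 0 among activators and partners, 1 among substrates and 0 among AP-1, Ets and cytokine genes. Under that scaling 18 relations with marker lists and 1 between genes of the set passed. Without the filter on low counts, 4 of the remaining MMP genes were higher. With the filter it was 2, and 3 without KO_391 or without any 1 WT mouse. With the filter and all mice, 28.2% of all genes tested were higher, so nothing is read from these few calls. Leaving out 1 mouse, ADAM and ADAMTS genes lower ranged from 0 to 1 (0 without KO_372, KO_404, KO_414, KO_435, WT_389 or WT_406), and AP-1, Ets and cytokine genes lower from 1 to 2. Depth limits Mmp9, and Mmp12, Mmp13 and Timp1 in WT, where single fragments set the level.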

Other observations

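Some genes of the wider family and of the lists did not pass the filter on low counts and were picked out here after their values were seen. Mmp24, a membrane-type MMP best known from brain, had 3 to 79 fragments per KO mouse, with a median of 36.5 and the lowest in KO_391. It had 0 to 1 per WT mouse, of which 7 were at 0, and the edgeR fit without a filter gave an adjusted p of 4.35e-08. Mmp7, matrilysin, an epithelial protease, had 0 to 15 fragments per KO mouse and 0 to 2 per WT mouse, with an adjusted p of 0.00692 in that fit. Fosl1, an AP-1 subunit, had 1 to 43 fragments per KO mouse and 0 in all 10 WT mice, with an adjusted p of 0.000179. KO_391 was the lowest KO mouse for Mmp24 and Fosl1, as it was for Mmp12, Mmp14, Timp1 and Timp3.

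Further genes of the plasminogen system passed the test. Plat, the tissue plasminogen activator, rose by 1.70 in log2 fold change (adjusted p = 1.22e-06; 2.54 ± 0.581 CPM in KO, 0.772 ± 0.328 CPM in WT), and Plaur, the urokinase receptor, by 2.31 (adjusted p = 0.000107). Serpinf2, the plasmin inhibitor that hepatocytes secrete, fell by 0.83 (adjusted p = 3.45e-08; 510.0 ± 45.7 against 904 ± 142 CPM).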
